A study of Mus musculus with 6 samples.

Results

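Transcript levels of 10 developmental transcription factor genes were compared between PICs and satellite cells sorted from mouse hindlimb muscle. The genes are Tbx2, Tbx3, Tbx4, Tbx5, Tbx15, Tbx18, Shox2, Meis1, Meis2 and Msx1, and a probe set was taken when one of these was the single gene symbol listed for it. This gave 10 of 18193 genes with such probe sets, and 25 of the 45037 probe sets in the deposited table. PICs, known in the field as muscle interstitial cells that carry the PW1 protein made from Peg3, and satellite cells, the stem cells of muscle fibres, came from C57 black 6 mice 7 to 9 days old that carried no stated allele or treatment. Both populations were separated by flow cytometry on CD34 and Sca1, and 3 arrays per population are labelled as biological replicates. The gates and the number of mice behind an array are not given in the sources used here. With 3 against 3 arrays, the number of arrays limits the precision of each value.

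T-box proteins bind DNA through a shared domain and act as activators or repressors in embryonic patterning. Tbx4 and Tbx5 are known for their roles in hindlimb and forelimb buds, Tbx2 and Tbx3 mostly repress transcription, and the sister genes Tbx15 and Tbx18 are expressed in limb and body wall mesenchyme. Shox2 and Msx1 encode homeodomain proteins of limb mesenchyme, Shox2 of its proximal part, and Msx1 is known as a target of BMP signals. Meis1 and Meis2 belong to the TALE class of homeodomain proteins, which bind DNA with Pbx and Hox partners and mark the proximal limb bud.

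Promoter windows of Shox2, Tbx18 and Meis2 are shown because these genes had the largest differences towards PICs, and that of Tbx4 because it lay the other way. Each window runs from 250 bases before to 50 after a gene start in RefSeq (build GRCm38.p6), 5′ to 3′, and capitals mark matches on either strand to TGACAG (the Meis core), GGTGTGA (the T-box core), TAATT (the homeodomain core) or TATAAA (the box of many core promoters).
Shox2, chr3:66981722-66982021, minus strand: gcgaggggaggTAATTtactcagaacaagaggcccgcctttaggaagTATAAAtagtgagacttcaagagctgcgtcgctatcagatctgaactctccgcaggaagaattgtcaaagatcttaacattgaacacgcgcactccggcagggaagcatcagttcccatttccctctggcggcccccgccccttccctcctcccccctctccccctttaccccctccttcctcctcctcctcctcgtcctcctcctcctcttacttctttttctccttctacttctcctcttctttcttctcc
Tbx18, chr9:87731211-87731510, minus strand: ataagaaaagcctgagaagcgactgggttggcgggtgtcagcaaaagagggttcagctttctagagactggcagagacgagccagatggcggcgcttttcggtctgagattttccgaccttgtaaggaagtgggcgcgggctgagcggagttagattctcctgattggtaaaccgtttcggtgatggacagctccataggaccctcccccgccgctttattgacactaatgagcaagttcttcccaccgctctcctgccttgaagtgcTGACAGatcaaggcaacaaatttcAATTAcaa
Meis2, chr2:116064570-116064869, minus strand: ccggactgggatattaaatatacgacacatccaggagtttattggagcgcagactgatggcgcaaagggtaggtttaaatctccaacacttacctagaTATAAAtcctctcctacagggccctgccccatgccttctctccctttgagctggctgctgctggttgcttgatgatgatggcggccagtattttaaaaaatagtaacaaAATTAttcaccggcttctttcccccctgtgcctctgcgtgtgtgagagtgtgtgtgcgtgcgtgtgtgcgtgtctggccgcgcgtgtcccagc
Tbx4, chr11:85896515-85896814, plus strand: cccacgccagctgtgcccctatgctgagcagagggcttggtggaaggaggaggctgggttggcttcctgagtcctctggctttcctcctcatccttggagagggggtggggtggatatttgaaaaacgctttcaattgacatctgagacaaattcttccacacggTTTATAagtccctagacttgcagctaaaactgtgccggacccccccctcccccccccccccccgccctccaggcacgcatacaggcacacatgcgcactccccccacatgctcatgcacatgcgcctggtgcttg

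The Shox2 window held a TAATT match at position 12 and a TATAAA match at position 48, counted from 1 at the 5′ end of the window. The Meis2 window held TATAAA at position 99 and a homeodomain core at position 208. In the Tbx18 window a TGACAG match began at position 269 and a homeodomain core at position 293. The Tbx4 window held a TATAAA match on the opposite strand at position 166. As 250 bases of each window precede the gene start, the Tbx18 matches lay after it and those of Shox2, Meis2 and Tbx4 before it. Whether any TATAAA match serves as a core promoter box was not tested. None of the matches overlapped each other, and the T-box core was found in 0 of the 6 member windows. Among 32841 windows of the same length, 19.2% held TGACAG, 3.98% held GGTGTGA, 27.0% held TAATT and 13.6% held TATAAA. The windows of Meis1 and Msx1 were also searched and held none of the 4 motifs, while Tbx2, Tbx3, Tbx5 and Tbx15 had no entry.

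Values are GCRMA intensities on a linear scale, and differences are on the log2 scale, PICs minus satellite cells. A level of 16 or less (4 on the log2 scale) is called low here. Probe sets above that level on at least 3 of the 6 arrays were tested with limma, two-sided, and a call required an adjusted p under 0.05 together with a log2 difference of at least 1 in size. Adjustment ran over all 18433 probe sets tested. Of the 25 probe sets, 15 passed the filter on low values and represented 9 of the 10 genes, Tbx5 being the exception. Of the 10 that did not pass, 7 were low on all 6 arrays.

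Of the 15 tested probe sets, 9 were called higher in PICs, where 15.1% of all probe sets were, and 1 was called higher in satellite cells, where 12.8% were. The 9 probe sets belong to Tbx2, Tbx3, Tbx18, Shox2, Meis2 and Msx1, and the 1 belongs to Tbx4. The 3 PIC arrays all lay above the 3 satellite arrays in 11 of the 15 and below them in 1, against 27.7% and 32.2% of all probe sets tested (59.9% either way). The median log2 difference was 1.89 over the 15 probe sets and -0.07 over all tested. The genes were chosen with earlier results of these data known, so these contrasts are a description and not a test. A probe set that is low in one population passed the filter only through the other, so these counts do not speak for probe sets that failed it. In sorted bulk RNA, fewer cells that express a gene and less RNA per cell cannot be told apart.

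**Figure D1:**
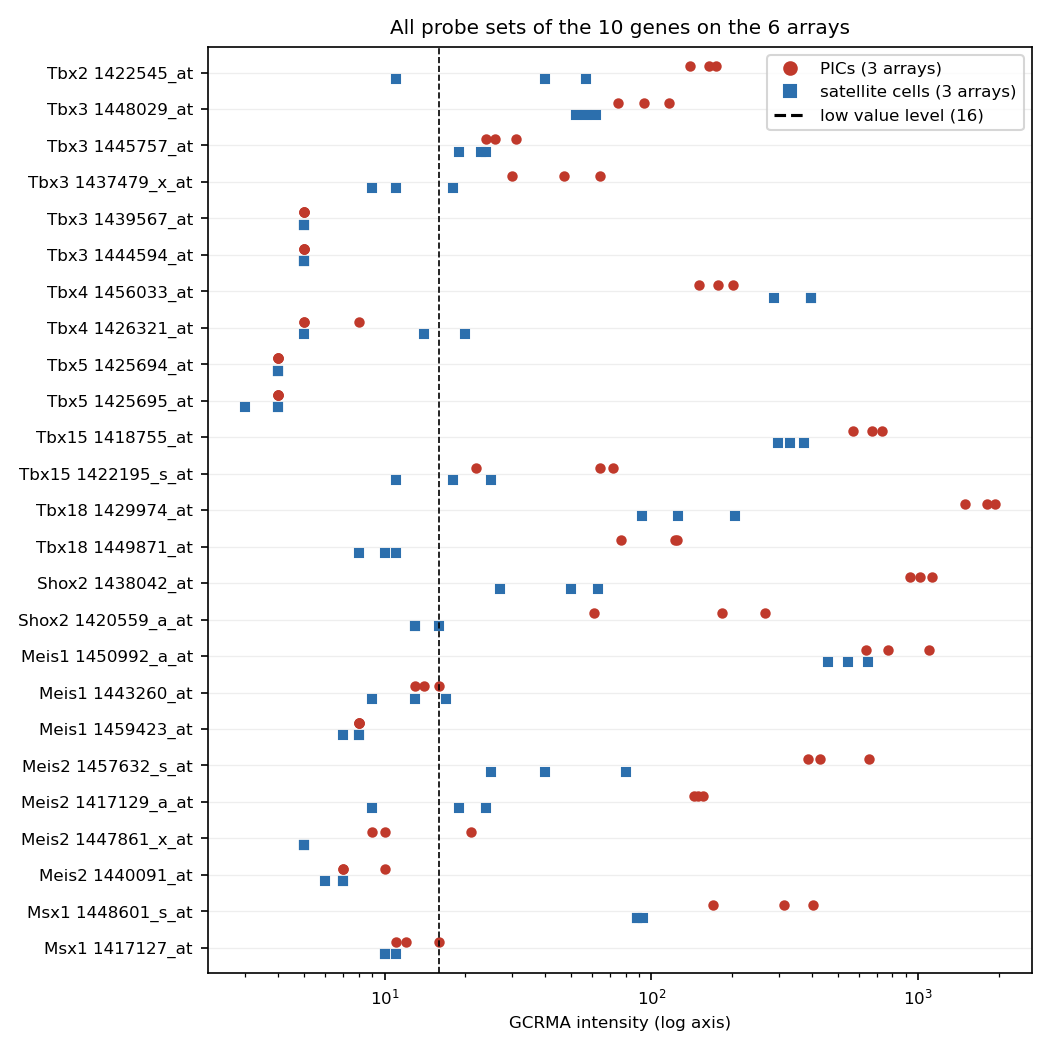
Each row is 1 of the 25 probe sets and the x axis gives GCRMA intensity on a log axis, with red circles for the 3 PIC arrays, blue squares for the 3 satellite arrays and a dashed line at the low value level of 16. Shox2 1438042_at lay between 930 and 1128 in PICs and between 27 and 63 in satellite cells, while both Tbx5 probe sets stayed at 4 or less on every array.

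Markers of the populations and the arrays were compared first. Over the probe sets tested, correlation between arrays was 0.954 to 0.987 within a population and 0.821 to 0.866 across populations. Pdgfra, a receptor that marks mesenchymal progenitors, read 10133, 9265 and 9081 in PICs and 513, 449 and 1074 in satellite cells. Pax7, the defining factor of satellite cells, read 236, 87 and 81 in PICs and 3065, 3455 and 3326 in satellite cells. Cd34, used in the sort, was called higher in PICs with a log2 difference of 1.92 (limma, adjusted p = 0.000132). Ly6a, the gene of Sca1, had no probe set with a single gene symbol and could not be read. Peg3, the gene of the PW1 protein, was high in both populations. Its brightest probe set read 21709, 21661 and 20679 in PICs and 17875, 18378 and 19812 in satellite cells. The difference of 0.19 was not called (limma, adjusted p = 0.171). Genes of the marker lists were read on their tested probe set of highest mean, and over all 10855 genes tested this way 16.6% were called towards PICs and 13.0% towards satellite cells. All 10 markers of myogenic progenitors were called higher in satellite cells and 8 of 9 tested markers of fibro-adipogenic progenitors were called higher in PICs. Of 9 tested genes of differentiated muscle fibres, 5 were called higher in PICs, Tnnt3 (2.84) and Tnnc2 (2.31) among them, and 1, the calcium pump gene Atp2a1 (-4.49), was called higher in satellite cells (median 1.99). Their summed intensity was 6685, 7544 and 8069 in PICs and 10128, 6049 and 4259 in satellite cells, and Myh2 was low on every array. Of 6 tested Schwann and glial genes, S100b (1.90) and Cdh19 (4.01) were called higher in PICs, with sums of 10716 to 25073 in PICs and 12321 to 21037 in satellite cells and Foxd3 and Gfap low on every array. Of 9 tested tenocyte genes, Thbs4 (2.44) and Col12a1 (2.12) were called higher in PICs and Mkx (-1.44) higher in satellite cells. Tenocyte sums were 40254 to 49801 in PICs and 38430 to 47798 in satellite cells, and Scx was low on every array. Without Egr1, the brightest gene of the list, the sums were 24972, 29075 and 23633 in PICs. In satellite cells they were then 20591, 13300 and 20234, without overlap with PICs. The sum of 10 endothelial genes ranged from 2078 to 7214 in PICs and from 3681 to 5183 in satellite cells. The part of these cell types in the differences of the factors was not tested. The summed intensity of 10 leukocyte markers was 2084, 245 and 111 in PICs and 2815, 164 and 104 in satellite cells, so that it was high on both arrays numbered 1. Among tested probe sets above the low value level on replicates 1 and 2, replicate 3 read under 50% of the lower of these in 5.38% in PICs and 2.35% in satellite cells, and no other array exceeded 0.771% by the same measure. Without both arrays numbered 1, which leaves 2 arrays per population, the 6 probe sets of Shox2, Tbx18 and Meis2 stayed called higher in PICs. The called probe sets of Tbx2, Tbx3, Msx1 and Tbx4 lost their call, with log2 differences of 2.64, 1.78, 1.53 and -0.83. On all arrays these were 2.44, 1.89, 1.63 and -1.02. Without both arrays numbered 3, calls towards PICs numbered 10 among the member probe sets and calls towards satellite cells 1.

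Shox2, the homeodomain factor of the proximal limb, had the largest difference of the 15 probe sets. Its probe set 1438042_at read 930, 1014 and 1128 in PICs and 50, 27 and 63 in satellite cells. The populations did not overlap, and the log2 difference was 4.54 (23.2-fold; 95% interval 3.77 to 5.31; limma, adjusted p = 0.000191). A second Shox2 probe set, 1420559_a_at, read 184, 266 and 61 in PICs and 13, 16 and 13 in satellite cells. No satellite array exceeded the low value level there, so the probe set was at least 9.00-fold higher in PICs. It passed the filter only through the PIC arrays, and its fitted log2 difference was 3.37 (limma, adjusted p = 0.00278). PIC replicate 3 gave the highest PIC reading on the first Shox2 probe set and 33.2% of the next lowest PIC reading on the second. Without that array the bound was 13.8-fold (log2 difference 3.99; limma, adjusted p = 0.000465). It fell to 7.96-fold without PIC replicate 1 and to 6.62-fold without PIC replicate 2.

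Tbx18, a T-box factor of mesenchyme that is also known to mark vascular mural cells, was called higher in PICs on both of its probe sets. Probe set 1429974_at read 1500, 1808 and 1931 in PICs and 126, 92 and 205 in satellite cells. Every PIC array exceeded every satellite array several times over, with a log2 difference of 3.70 (13.0-fold; 95% interval 2.97 to 4.43; limma, adjusted p = 0.000287). Probe set 1449871_at read 77, 125 and 123 in PICs and 10, 8 and 11 in satellite cells, with every satellite array low. The gene was therefore at least 6.61-fold higher in PICs on that probe set. This probe set passed the filter only through the PIC arrays, and its fitted log2 difference was 3.46 (limma, adjusted p = 0.000183).

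Mural markers were read beside Tbx18. Of 9 tested mural genes, 2 were called higher in PICs, namely the proteoglycan gene Cspg4 (2.23) and the receptor gene Pdgfrb (2.27), and 2 were called higher in satellite cells, namely Acta2 (-2.28), smooth muscle actin, and Notch3 (-1.26). Both counts were near the shares over all genes of 16.6% and 13.0%. Rgs5, a regulator of G protein signalling found in pericytes, read 8233, 5605 and 2444 in PICs and 7354, 4296 and 6232 in satellite cells. The summed intensity of the 10 mural genes ranged from 13198 to 27806 in PICs and from 31768 to 35735 in satellite cells, and Higd1b was low on every array. Acta2 made up most of the satellite sums, and without it the sums were 20895, 17511 and 10432 in PICs and 15169, 10796 and 13978 in satellite cells, which overlap. The part of mural cells in the Tbx18 difference was not tested.

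Meis2, a TALE homeodomain factor, was called higher in PICs on both tested probe sets. Probe set 1457632_s_at read 386, 427 and 652 in PICs and 40, 25 and 80 in satellite cells, a log2 difference of 3.46 (11.0-fold; 95% interval 2.38 to 4.55; limma, adjusted p = 0.00126). Probe set 1417129_a_at read 145, 156 and 149 in PICs and 19, 9 and 24 in satellite cells, a log2 difference of 3.23 (9.37-fold; 95% interval 2.35 to 4.10; limma, adjusted p = 0.000738). The populations were apart on both. The suffix _s_at of the brighter probe set marks possible hybridisation to related transcripts. Probe set 1447861_x_at read 9, 10 and 21 in PICs and 5 on each satellite array, and 1440091_at read at most 10 anywhere, so neither was tested.

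Meis1, its close relative, was present in both populations. Probe set 1450992_a_at read 636, 767 and 1094 in PICs and 457, 545 and 648 in satellite cells. PICs were higher at each replicate number, but PIC replicate 1 lay under satellite replicate 3, and the log2 difference of 0.58 was not called (95% interval -0.01 to 1.16; limma, adjusted p = 0.0910). With the replicate number as a block the adjusted p was 0.0116, and the difference stayed under the 2-fold threshold. The other probe sets, 1443260_at and 1459423_at, read between 7 and 17 and were not tested. Whether the differences of Meis1 and Meis2 differ from each other was not tested.

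**Figure D2:**
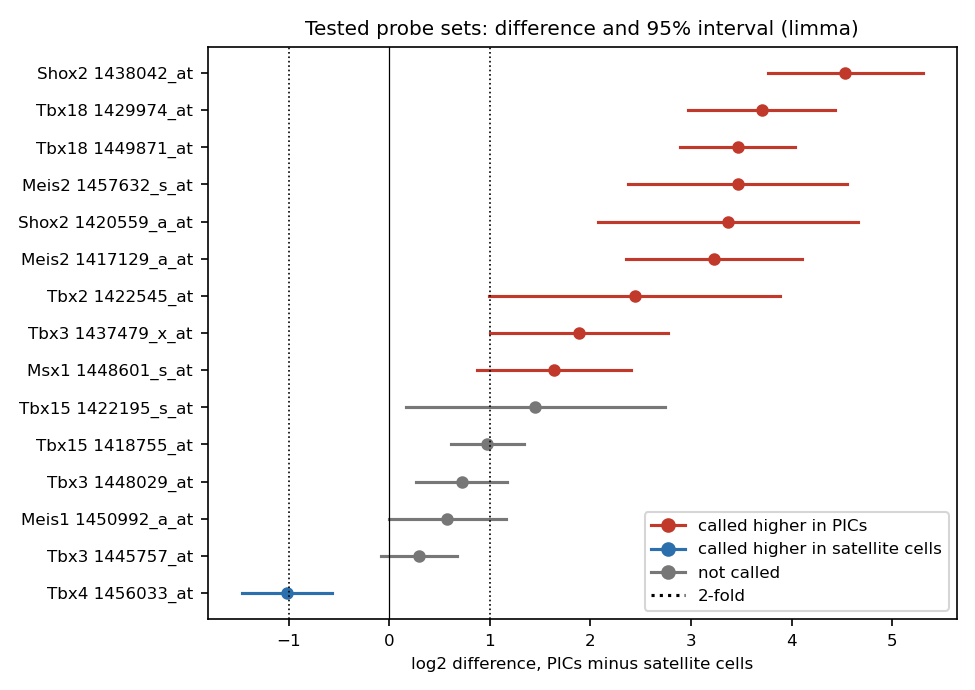
Points give the log2 difference, PICs minus satellite cells, of the 15 tested probe sets, lines the 95% interval from limma, dotted lines the 2-fold threshold, and colours the call. Shox2, Tbx18 and Meis2 lie between 3.23 and 4.54, and Tbx4, at -1.02, is the one probe set left of 0.

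Tbx2 and Tbx3, the repressor pair, were each called higher in PICs on 1 probe set. Tbx2 has 1 probe set, 1422545_at, which read 164, 174 and 140 in PICs and 40, 11 and 57 in satellite cells. It was called higher in PICs with a log2 difference of 2.44 (95% interval 0.99 to 3.89; limma, adjusted p = 0.0158). The PIC arrays were close together and the satellite arrays ran from low to above the low value level. Without satellite replicate 2 the difference was 1.73 (limma, adjusted p = 0.00384), and with array weights it was 3.58 (limma, adjusted p = 0.00032). The call was lost without PICs replicate 2 (2.37; limma, adjusted p = 0.0558) and when low probe sets were not filtered out (2.44; limma, adjusted p = 0.0848).

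Tbx3 has 5 probe sets, whose calls differed. Probe set 1437479_x_at read 47, 64 and 30 in PICs and 11, 18 and 9 in satellite cells and was called higher in PICs, by 1.89 (limma, adjusted p = 0.00627). Its name marks possible hybridisation to related transcripts. Probe set 1448029_at read 75, 116 and 94 in PICs and 52, 62 and 57 in satellite cells, without overlap and under the 2-fold threshold (0.72; 95% interval 0.27 to 1.17; limma, adjusted p = 0.0193). Probe set 1445757_at read 26, 31 and 24 in PICs and 24, 19 and 23 in satellite cells, touching at 24, and was not called (0.29; 95% interval -0.08 to 0.67; limma, adjusted p = 0.163). Both remaining ones, 1439567_at and 1444594_at, read 5 on every array. The direction was thus the same on the 3 tested probe sets, and the 2-fold call rested on 1 of them, the dim 1437479_x_at. When the tested probe sets were averaged, Tbx3 was not called (0.97; limma, adjusted p = 0.00457), nor was it when the brightest, 1448029_at, stood for the gene (0.72; limma, adjusted p = 0.0149).

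Tbx15, the sister gene of Tbx18, was higher in PICs by close to 2-fold. Probe set 1418755_at read 570, 673 and 729 in PICs and 297, 374 and 332 in satellite cells. The populations did not overlap, and the log2 difference of 0.97 lay just under the 2-fold threshold (95% interval 0.61 to 1.34; limma, adjusted p = 0.00250). It was called without PICs replicate 1 (1.07), without satellite replicate 2 (1.06), and when the probe sets of each gene were averaged (1.21; limma, adjusted p = 0.00630). Probe set 1422195_s_at, whose suffix carries the same limit on specificity as in Meis2, read 64, 72 and 22 in PICs and 25, 18 and 11 in satellite cells. PIC replicate 3 lay at 34.4% of the next lowest PIC array and below satellite replicate 1, and the probe set was not called (1.45; limma, adjusted p = 0.0619). It was called with the replicate block (limma, adjusted p = 0.00528) and, at 1.99, without PICs replicate 3 (limma, adjusted p = 0.00803).

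Msx1, the homeodomain factor downstream of BMP signals, was called higher in PICs on 1 of 2 probe sets. Probe set 1448601_s_at read 314, 404 and 170 in PICs and 88, 88 and 93 in satellite cells, a log2 difference of 1.63 (3.11-fold; 95% interval 0.87 to 2.40; limma, adjusted p = 0.00627). Satellite arrays were nearly equal, and PIC replicate 3 lay at 54.1% of the next lowest PIC array yet above all satellite arrays. The suffix of this probe set marks possible hybridisation to related transcripts. Probe set 1417127_at read 11, 16 and 12 in PICs and 10, 10 and 11 in satellite cells and was not tested. None of the 8 listed relatives, Msx2, Msx3 and Dlx1 to Dlx6, read above the low value level on any array.

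Tbx4, the hindlimb T-box factor, was the one gene of the 10 called higher in satellite cells. Probe set 1456033_at read 151, 178 and 202 in PICs and 398, 395 and 289 in satellite cells. No PIC array reached the lowest satellite array, and the log2 difference was -1.02 (2.03-fold; 95% interval -1.47 to -0.57; limma, adjusted p = 0.00478). The size sat at the 2-fold threshold, and the call was lost without PICs replicate 1 (-0.91), satellite replicate 1 (-0.94) or satellite replicate 2 (-0.95), where the adjusted p lay between 0.0175 and 0.0236. With log2(value + 16) the difference was -0.96 (limma, adjusted p = 0.00399). Probe set 1426321_at read 8, 5 and 5 in PICs and 20, 14 and 5 in satellite cells and was not tested.

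Tbx5, the forelimb T-box factor, was low in both hindlimb populations. Its probe sets 1425694_at and 1425695_at read 4 on each PIC array and between 3 and 4 on the satellite arrays, which leaves no measured level in either population. In the RefSeq table Tbx2 and Tbx4 are neighbours on chromosome 11 with 0 genes between them, and they were called in opposite directions. Tbx3 and Tbx5 lie on chromosome 5 with 2 genes and 0 protein-coding genes between them.

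**Figure D3:**
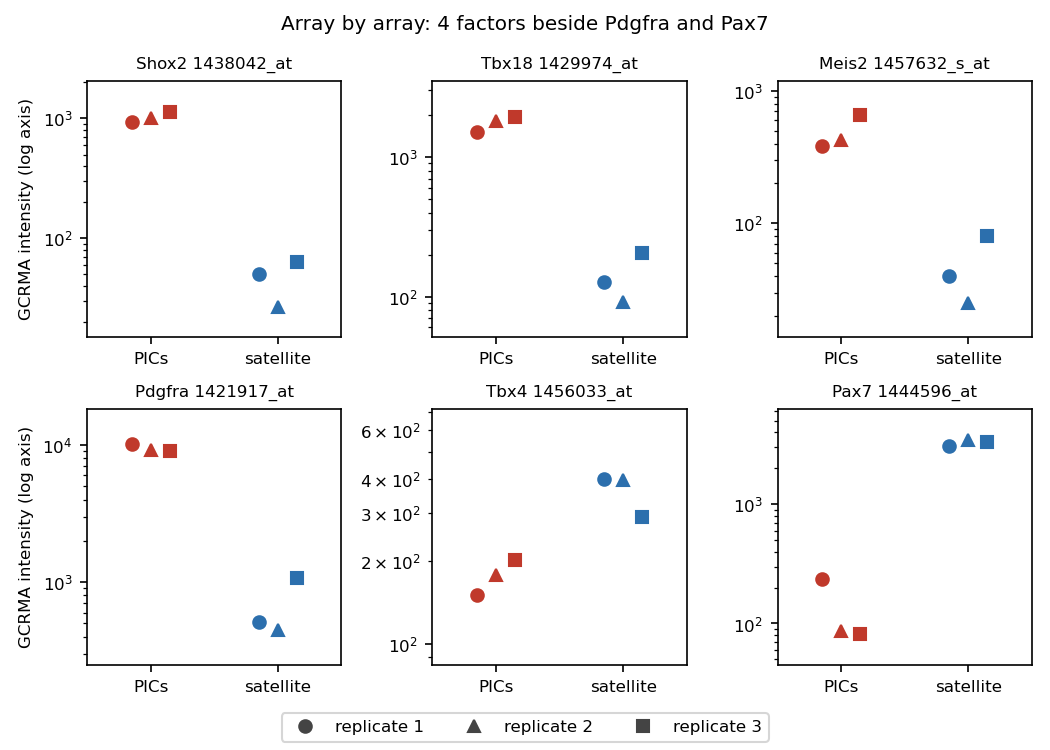
Panels give GCRMA intensity on log axes for Shox2, Tbx18, Meis2, Pdgfra, Tbx4 and Pax7, with PIC arrays on the left in red, satellite arrays on the right in blue and marker shapes for the replicate number. In satellite cells Shox2, Tbx18, Meis2 and Pdgfra were lowest on replicate 2 and highest on replicate 3, and Tbx4 in PICs lay at 151 to 202.

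The low satellite readings of the PIC-high factors were compared array by array. Of the 9 probe sets called higher in PICs, 6 were lowest on satellite replicate 2 and highest on satellite replicate 3, the order also seen for Pdgfra, and 3 were not. The same order was found in 30.6% of all probe sets called higher in PICs. As a share of the PIC mean, Shox2 1438042_at in satellite replicates 1, 2 and 3 stood at 4.88%, 2.64% and 6.15%, and Tbx18 1429974_at at 7.22%, 5.27% and 11.7%. The 3 exceptions were Shox2 1420559_a_at at 7.63%, 9.39% and 7.63%, Tbx3 1437479_x_at at 23.4%, 38.3% and 19.1%, and Msx1 1448601_s_at at 29.7%, 29.7% and 31.4%. Pdgfra stood at 5.40%, 4.73% and 11.3%. The summed intensity of the 9 fibro-adipogenic markers on the array ranged from 85195 to 93995 in PICs and from 27985 to 37390 in satellite cells, and of these Clec3b was low on all satellite arrays. The part of such cells in the satellite readings was not tested. Turned the other way, Tbx4 in PIC replicates 1, 2 and 3 stood at 41.9%, 49.4% and 56.0% of the satellite mean, while Pax7 stood at 7.19%, 2.65% and 2.47%.

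Other genes of the same families were read from lists of relatives, each gene on its tested probe set of highest mean, where 16.6% of all genes were called towards PICs and 13.0% towards satellite cells, with a median log2 difference of -0.04. Of 9 other T-box genes on the array, 7 were low on all arrays and 2 were tested. Tbx1, a factor of pharyngeal and head muscle development, read 8, 9 and 11 in PICs and 100, 117 and 111 in satellite cells, at least 6.82-fold higher in satellite cells (limma, adjusted p = 7.64e-05). Mga, which encodes a T-box protein that partners with Max, did not pass the test, at -0.01 (95% interval -0.34 to 0.33; limma, adjusted p = 0.981). On the same reading of 1 probe set per gene, Tbx1 and Tbx4 were called higher in satellite cells and Tbx2 and Tbx18 in PICs, while Tbx3 and Tbx15 were not called.

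The TALE partners of Meis proteins were divided, with 1 of 7 tested genes called higher in PICs and 3 called higher in satellite cells (median -0.68). Meis3 read 135, 142 and 74 in PICs and 28, 30 and 25 in satellite cells, a log2 difference of 2.03 (limma, adjusted p = 0.00142). Pknox1, a partner of Pbx proteins, read 310, 301 and 219 in PICs and 802, 872 and 703 in satellite cells, and its difference of -1.53 (limma, adjusted p = 0.000853) had the same sign and call on its other tested probe sets. The repressor genes Tgif2 (-1.57) and Tgif1 (-1.55) were also called higher in satellite cells. Pbx2 (0.50), Pbx3 (-0.23) and Pknox2 (-0.68) were not called. Of 6 Iroquois genes, a further TALE group, 4 were low on all arrays. Irx5 read 5, 5 and 8 in PICs and 41, 44 and 54 in satellite cells, at least 2.88-fold higher in satellite cells (limma, adjusted p = 0.000246).

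Genes of limb position and outgrowth were mostly low. Of 24 on the array, 15 were low on all arrays, among them Pitx1, the hindlimb factor that acts upstream of Tbx4 in the limb bud, and the signalling genes Fgf8, Fgf10 and Shh. Of the 8 tested, 4 were called higher in PICs and 0 in satellite cells (median 2.02). Wnt5a, a ligand of limb outgrowth, read 1266, 1302 and 1312 in PICs and 67, 51 and 108 in satellite cells, a log2 difference of 4.17 (limma, adjusted p = 0.000167). Twist1, a factor of limb mesenchyme, differed by 4.05 and Prrx2, a paired-type homeodomain factor, by 3.17. Bmp7, a BMP ligand gene, was higher in PICs by at least 7.28-fold (fitted log2 difference 3.84; limma, adjusted p = 0.000771). Bmp4 (-0.04) and Bmp2 (0.87; limma, adjusted p = 0.0732) did not pass. The Bmp7 bound was 5.54-fold without PICs replicate 3 and 9.75-fold without PICs replicate 1.

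**Figure D4:**
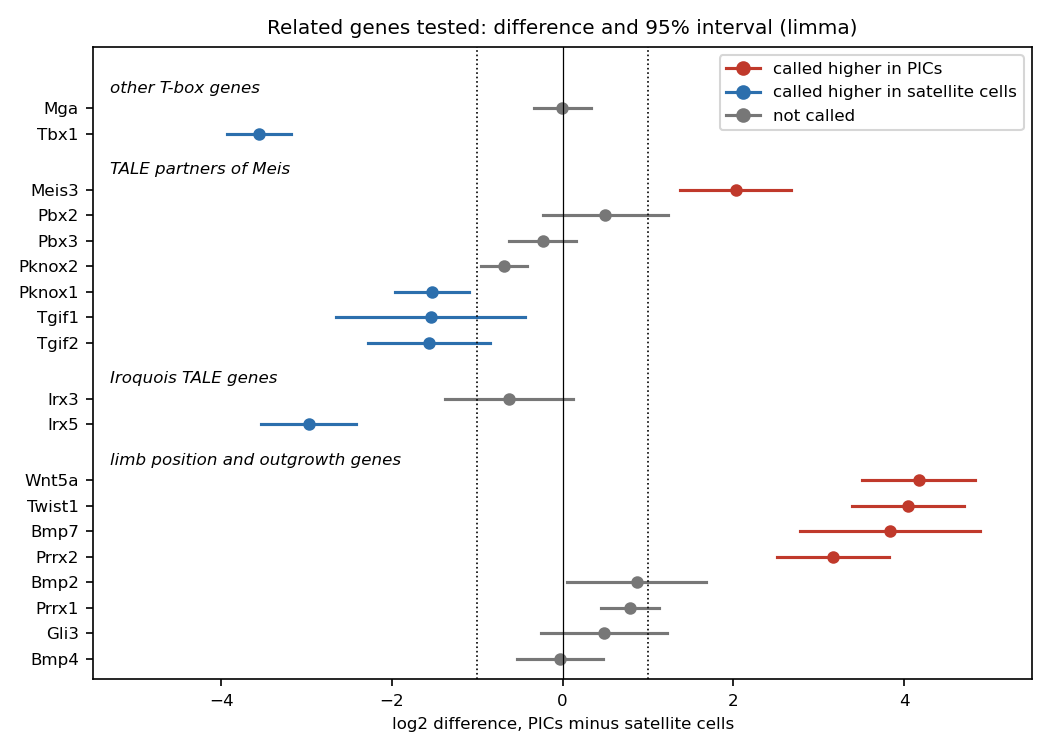
Points give the log2 difference, PICs minus satellite cells, of the tested genes of the related lists, lines the 95% interval from limma and dotted lines the 2-fold threshold. Wnt5a, Twist1, Bmp7 and Prrx2 lie between 3.17 and 4.17, whereas Tbx1 lies at -3.56 and Irx5 at -2.98; Tbx1 and Irx5 were low in PICs and Bmp7 was low in satellite cells, so those 3 sizes are fitted values and not bounds.

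Probe sets of other genes with the profile nearest to Shox2 1438042_at were taken by the root-mean-square distance between mean-centred log2 values over the 6 arrays. These were Gria3 (distance 0.097), an AMPA glutamate receptor subunit gene, Cxcl9 (0.129), a chemokine gene, and Tspyl3 (0.133). Gria3 read 509, 550 and 643 in PICs and 24, 16 and 36 in satellite cells. The profile of Tbx4 1456033_at was nearest to Bcat1 (0.060), which encodes a branched-chain aminotransferase, Lynx1 (0.065) and Gfer (0.076). Bcat1 read 332, 405 and 460 in PICs and 915, 959 and 717 in satellite cells.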

How the data were processed

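Each sample gave 200 ng of total RNA for biotin-labelled cRNA and was read on a 1-colour array, per the labels' protocols. Per the submitters' processing notes the authors used GCRMA, a background correction by probe sequence with normalization and a summary per probe set, with no version given. The deposited intensity values are whole numbers on a linear scale that start at 2 and have a median of 10 on every array; rounding makes low values coarse on the log2 scale. Scan batches were not analysed here.

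Of 45037 probe sets, 34945 had 1 gene symbol in the platform annotation, 932 had several and 9160 had none listed; 34741 were matched by gene number to RefSeq names of GRCm38.p6. No probe set with several symbols listed a member. Log2 values were fitted with limma 3.58.1 (lmFit, eBayes, no trend) in R 4.3.3 and adjusted by Benjamini-Hochberg over 18433 probe sets. Bounds written "at least" are the mean of one population minus 4, the low value level, where all 3 arrays of the other were at or under it. They carry no interval for the spread of the higher population and could fall when 1 of its arrays was left out. The lowest bounds were then 6.08-fold for Tbx18 1449871_at, 6.585-fold for Tbx1 and 2.655-fold for Irx5. An adjusted p beside a bound belongs to the fitted log2 difference and does not test the bound. P-values measure the spread between arrays labelled as biological replicates. The fit was tested on simulated data in which arrays varied independently, so deviations shared by arrays of the same replicate number were not covered.

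Members and lists were chosen with earlier results of these data known. Named are all member probe sets, up to 4 called genes of largest size per list and direction, the 3 nearest profiles and the checks Pax7, Pdgfra, Cd34 and Peg3; list genes that were not called, the marker genes other than the checks, and genes low on all arrays were named after their values were seen.

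Both populations use the same replicate numbers, with no label that ties a number to 1 preparation. Deviations from population means, over probe sets, correlated at 0.616, 0.287 and 0.641 for equal numbers and at -0.588 to 0.169 for unequal ones. The main fit did not use the replicate number, so intervals and adjusted p ignore any pairing unless the block is named. A fit with the replicate block stands beside results it changes. Alternatives were the filter, a pseudocount, the choice of probe sets per gene, the block, the variance model, 2 normalizations and leaving out each array. Leaving out both arrays of a number was added after the data were seen.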

Additional observations from a re-analysis of the deposited data

How the results depend on the processing

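No member probe set changed direction under the 18 alternatives run. Of the 15, 9 kept both direction and call, or lack of a call, under every alternative that could test them. Of these 9, the 6 of Shox2, Tbx18 and Meis2 were called higher in PICs, and the rest, of Tbx3 and Meis1, were not called. The calls of Tbx2, Tbx3 1437479_x_at, Msx1 and Tbx4 were each lost under at least 1 alternative, and both Tbx15 probe sets gained a call under some. The count of member probe sets called higher in PICs was 9 as reported, 10 with the replicate block and with array weights, 8 without the filter, 7 with a stricter filter, and 6 to 10 when arrays were left out. By gene it was 6, with 5 when 1 probe set stood for each gene (Tbx3 was lost), without the filter and with the stricter filter, and 3 to 7 when arrays were left out. With log2(value + 16), 4 dim probe sets kept their call at smaller sizes: Tbx18 1449871_at (2.25), Shox2 1420559_a_at (2.44), Meis2 1417129_a_at (2.34) and Tbx3 1437479_x_at (1.11). With array weights Shox2 1420559_a_at (3.99) and Meis2 1417129_a_at (3.88) were larger. The lowest counts came without replicate 1 of both populations, where 2 arrays per population remain: Tbx2 (2.64, adjusted p = 0.0904), Tbx3 1437479_x_at (1.78, adjusted p = 0.0779) and Msx1 (1.53, adjusted p = 0.0767) then missed the threshold (limma). The single call higher in satellite cells, Tbx4, gave a count of 0 with log2(value + 16) and 0 or 1 when arrays were left out; without replicate 1 of both populations its difference was -0.83 (limma, adjusted p = 0.0544). With the replicate block, the calls among members changed for Tbx15 1422195_s_at alone. Over all probe sets the block gave 2881 calls towards PICs and 2473 towards satellite cells, against 2782 and 2353 as reported. Leaving out arrays gave 2518 to 2858 and 2129 to 2459. Low intensities limit what can be said of probe sets near the low value level, where rounding to whole numbers gives large steps on the log2 scale.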

Other observations

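Hand2, a basic helix-loop-helix factor of the posterior limb bud, was too low to test, and its brightest probe set read 6, 18 and 26 in PICs and 6 on each satellite array. Prrx1, a homeodomain factor of limb mesenchyme, has 5 tested probe sets with differing calls. Its brightest one, 1425528_at, read 2394, 2418 and 2579 in PICs and 1272, 1346 and 1685 in satellite cells (log2 difference 0.79, limma, adjusted p = 0.00460), under the 2-fold threshold. Probe sets 1425526_a_at (1.15) and 1432129_a_at (1.00) were called higher in PICs. The second brightest, 1439774_at (0.97; limma, adjusted p = 0.00380), and 1425527_at (0.15) were not. Wnt5a was called higher in PICs on all 3 of its tested probe sets, while PIC replicate 3 read 341 on 1448818_at, against 1165 and 965 on the other PIC arrays.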
